A study of Mus musculus with 12 samples.

Results

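Nuclear-encoded parts of the mitochondrial protein import machinery were followed in fully grown mouse oocytes at the germinal vesicle (GV) stage. Members were chosen by gene symbol: all Timm and Tomm genes with a number in their name, the metaxins (Mtx genes), Samm50, Chchd4, Gfer, Pam16, Dnlz, Grpel1, Grpel2, Hspa9, Pmpca and Pmpcb. This rule matched 38 of the 24255 rows of the expression table, of which 37 are protein-coding genes and 1 is an antisense RNA (Tomm6os). RNA-Seq had been done on 12 libraries of 20 oocytes each, 3 per group, from C57BL/6 females 3 weeks old, 46 h after priming with 5 IU of PMSG, a gonadotropin that drives follicle growth. The WT group carried normal Dpagt1, the gene of the enzyme that starts the assembly of N-glycans in the endoplasmic reticulum. The MUT group carried the D166G missense mutation of Dpagt1 in the whole animal. In the GcKO group (Dpagt1F/F Gdf9CRE/+) the floxed gene was deleted by a Cre driven by the Gdf9 promoter, which is active in oocytes. In the AmcKO group (Dpagt1F/F Amhr2CRE/+) Cre was driven by Amhr2, which is active in granulosa cells, so that the oocytes themselves kept the gene. No library of floxed females without Cre entered the comparisons, and nothing in the labels says that the 3 libraries of a group came from different females, so p-values measure the spread between libraries, which may be technical.

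Almost all mitochondrial proteins are made in the cytosol and carried in through the TOM complex of the outer membrane. From there, proteins with a presequence pass the TIM23 complex and are pulled into the matrix by the motor around the chaperone Hspa9, while small TIM chaperones guide membrane proteins across the intermembrane space to the TIM22 or SAM complex, and the MIA relay of Chchd4 and Gfer traps small cysteine-rich proteins by disulfide bonds. Oocytes hold a very large number of mitochondria, all of which the embryo inherits.

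The libraries differed in more than the members. Dpagt1 itself was listed at 0 FPKM (fragments scaled by the length of the transcript and the depth of the library) in every WT and AmcKO library, at 0.878, 0.408 and 0.985 in MUT and at 0, 0.366 and 0 in GcKO, so its level checks none of the labels. The FPKM values of all genes had sums of 1167362 to 1226005 (WT) and 883256 to 1107925 (AmcKO), but of only 589617 to 611597 (MUT) and 482314 to 684212 (GcKO) in the groups whose oocytes carried altered Dpagt1. Between 9359 and 9622 genes were above 0 in WT libraries, fewer than in AmcKO (10399 to 10921), GcKO (10733 to 11608) or MUT (11208 to 11467). The 11 oocyte markers examined stood at 12.4 FPKM or more in every library. Of the 12 granulosa cell markers, 4 (Amh, Amhr2, Foxl2 and Npr2) were listed at 0 throughout; the whole list summed to FPKM values that overlapped in all groups (WT 106 to 151, MUT 123 to 127, GcKO 97.9 to 144, AmcKO 123 to 148). Without Cyp19a1 and Serpine2, which held most of that sum, it was higher in MUT (5.74 to 14.8) and GcKO (4.43 to 5.89) than in WT (0.723 to 3.00) and AmcKO (0.750 to 2.33), and the part of this in the results was not tested. Of 7 theca, endothelial and blood markers, 4 were at 0 in all libraries and none exceeded 6.77 FPKM. WT and AmcKO libraries carry the numbers 4 to 6 and MUT and GcKO libraries 1 to 3, so whatever these numbers stand for cannot be told apart from the groups in comparisons between the pairs.

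The import transcripts covered a very wide range of levels. Of the 38, 30 reached 1 FPKM in at least 1 library and were tested, while 8 stayed below: Tomm70a, a receptor of TOM, Samm50, the channel of SAM, Chchd4, Pmpca, a subunit of the matrix processing protease, Mtx3, and the 3 listed at 0 in all libraries (Tomm20l, Tomm40l and Tomm6os). Timm9, Timm17a and Timm8b towered over the rest. Their mean FPKM over the 12 libraries was 2292, 2029 and 1810, and that of the next, Tomm22, was 371. Together those 3 made up 84.2 to 86.2% of the summed FPKM of the members in WT libraries and 82.9 to 85.0% in AmcKO, but less, 78.4 to 79.8%, in MUT and 78.3 to 80.4% in GcKO. Partners within 1 complex were therefore far apart: Timm9, which forms a hexamer with Timm10, had a mean of 2292 FPKM and Timm10 one of 57.3. Within TOM, the central receptor Tomm22 averaged 371 FPKM, the pore Tomm40 28.5 and the presequence receptor Tomm20 only 1.19.

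**Figure D1:**
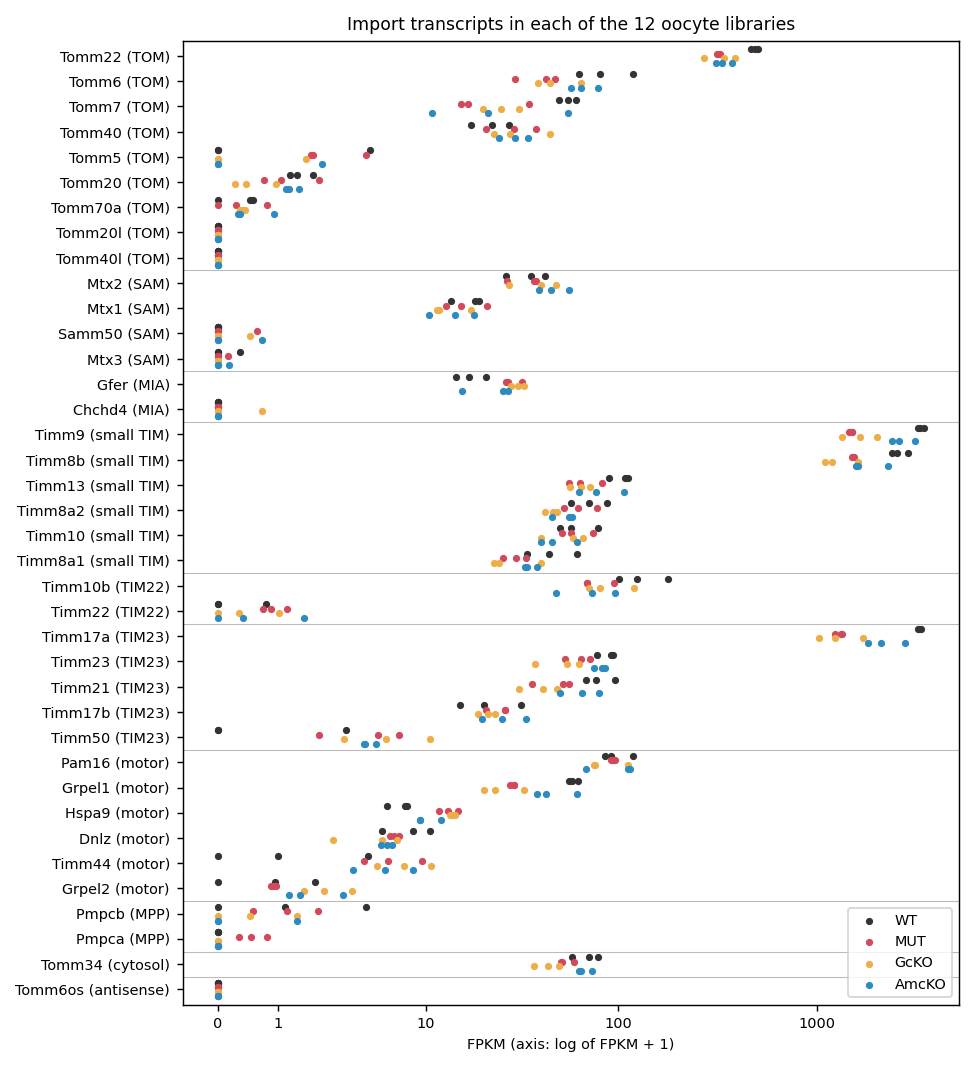
FPKM of each of the 38 members (vertical axis, ordered by complex and level) in each of the 12 libraries, on a log axis of FPKM + 1; every point is 1 library and colours mark the 4 groups. Timm9, Timm17a and Timm8b lie at 1026 or above in all libraries, with the WT points to the right of the MUT and GcKO points, whereas Tomm20l, Tomm40l and Tomm6os lie at 0.

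Promoter sequences of the 4 most abundant members, of Grpel1 and of Timm50 are given because these members differ most in level and in their change. The windows run from 250 bases before to 50 bases after the RefSeq transcript start, on assembly GRCm38.p6, and are read 5′ to 3′ on the strand of the gene. They are Timm9 (chr12:71136626-71136925, minus strand), Timm17a (chr1:135313688-135313987, minus strand), Timm8b (chr9:50603651-50603950, plus strand), Tomm22 (chr15:79670618-79670917, plus strand), Grpel1 (chr5:36464935-36465234, plus strand) and Timm50 (chr7:28311997-28312296, minus strand). Capitals mark matches on either strand to CCGGAAG, the core bound by ETS factors such as GABP, or to GCGCATG, part of the site bound by NRF1; GABP and NRF1 are known regulators of nuclear genes for mitochondrial proteins.
Timm9: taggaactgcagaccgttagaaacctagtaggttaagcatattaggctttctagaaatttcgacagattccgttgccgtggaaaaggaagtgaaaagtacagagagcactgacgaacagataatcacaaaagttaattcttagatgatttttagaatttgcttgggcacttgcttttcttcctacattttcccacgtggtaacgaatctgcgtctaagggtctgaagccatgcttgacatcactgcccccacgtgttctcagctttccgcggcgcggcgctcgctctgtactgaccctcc
Timm17a: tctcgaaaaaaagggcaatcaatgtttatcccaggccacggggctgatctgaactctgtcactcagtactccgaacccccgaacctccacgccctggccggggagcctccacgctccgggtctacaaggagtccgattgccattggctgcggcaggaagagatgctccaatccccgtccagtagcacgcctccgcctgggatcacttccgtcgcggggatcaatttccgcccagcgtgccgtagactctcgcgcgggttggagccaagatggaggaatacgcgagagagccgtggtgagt
Timm8b: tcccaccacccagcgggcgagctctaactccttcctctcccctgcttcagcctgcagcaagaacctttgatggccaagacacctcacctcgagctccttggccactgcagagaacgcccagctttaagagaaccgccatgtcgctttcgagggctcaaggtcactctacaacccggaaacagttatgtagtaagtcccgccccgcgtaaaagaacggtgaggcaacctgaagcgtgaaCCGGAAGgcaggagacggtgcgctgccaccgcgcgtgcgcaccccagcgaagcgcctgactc
Tomm22: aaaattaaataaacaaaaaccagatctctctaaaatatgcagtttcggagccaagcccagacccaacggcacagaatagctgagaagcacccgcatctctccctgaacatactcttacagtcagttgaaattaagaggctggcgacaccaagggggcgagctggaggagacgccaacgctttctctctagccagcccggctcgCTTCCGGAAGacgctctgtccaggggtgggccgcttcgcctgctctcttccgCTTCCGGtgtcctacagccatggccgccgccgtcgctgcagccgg
Grpel1: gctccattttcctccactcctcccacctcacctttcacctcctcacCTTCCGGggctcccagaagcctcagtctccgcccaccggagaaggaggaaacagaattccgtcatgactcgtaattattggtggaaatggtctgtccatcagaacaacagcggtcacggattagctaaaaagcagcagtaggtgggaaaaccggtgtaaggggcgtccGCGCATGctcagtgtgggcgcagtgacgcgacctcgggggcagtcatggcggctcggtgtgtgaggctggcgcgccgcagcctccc
Timm50: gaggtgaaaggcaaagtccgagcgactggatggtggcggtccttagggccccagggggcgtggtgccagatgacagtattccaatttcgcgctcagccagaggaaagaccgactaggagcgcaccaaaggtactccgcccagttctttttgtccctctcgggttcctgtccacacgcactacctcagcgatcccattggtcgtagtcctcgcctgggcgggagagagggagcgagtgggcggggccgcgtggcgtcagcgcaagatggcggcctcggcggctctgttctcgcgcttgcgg
Neither pattern was found in the Timm9, Timm17a and Timm50 windows. Tomm22 held 3 matches to the ETS core, starting 47 and 44 bases before and 5 bases after the start, the first and second of which overlap on opposite strands. Timm8b held the ETS core 12 bases before the start. Grpel1 held both patterns, the ETS core 204 bases and the NRF1 letters 36 bases before the start, without overlap. Windows were held for 33 of the 38 members, 35 windows in all, with none for Grpel2, Hspa9, Timm21, Tomm40l and Tomm7. The ETS core was in 16 of these 35 (45.7%), in 17.0% of the 10699 windows of all genes tested and in 8.86% of all 32851 windows. For the NRF1 letters the shares were 3 of 35 (8.57%), 6.75% and 3.91%. A match is a run of letters, not a measured binding site.

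Transcripts of the import machinery were more often called lower than higher in MUT and GcKO oocytes against WT on the FPKM scale as deposited, and the median was below 0, a direction that turned for the median member when every library was scaled to the same FPKM sum. Tests were made with limma on log2(FPKM + 1) over all 11233 genes at or above the minimum, and genes are called where the adjusted p (Benjamini-Hochberg, over all genes tested) was under 0.05. In MUT, 9 of the 30 members tested were called lower and 4 higher, where 11.3% of all genes tested were called lower and 9.46% higher. In GcKO, 11 were called lower and 4 higher, where the background was 11.4% and 8.71%. The members had a median log2 fold change of -0.18 (MUT) and -0.57 (GcKO), where the median of all genes tested was 0.12 in both. These comparisons share their 3 WT libraries, so they are given side by side and not as support of each other. Since a library holds RNA of 20 pooled oocytes, less RNA per oocyte and fewer intact oocytes cannot be told apart, and FPKM, a value relative to depth, reads neither of them directly. The processing notes name Cuffnorm and Cuffdiff, but whether and how the deposited FPKM had been rescaled between libraries is not given in the sources used here. The direction of most calls depends on it.

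**Figure D2:**
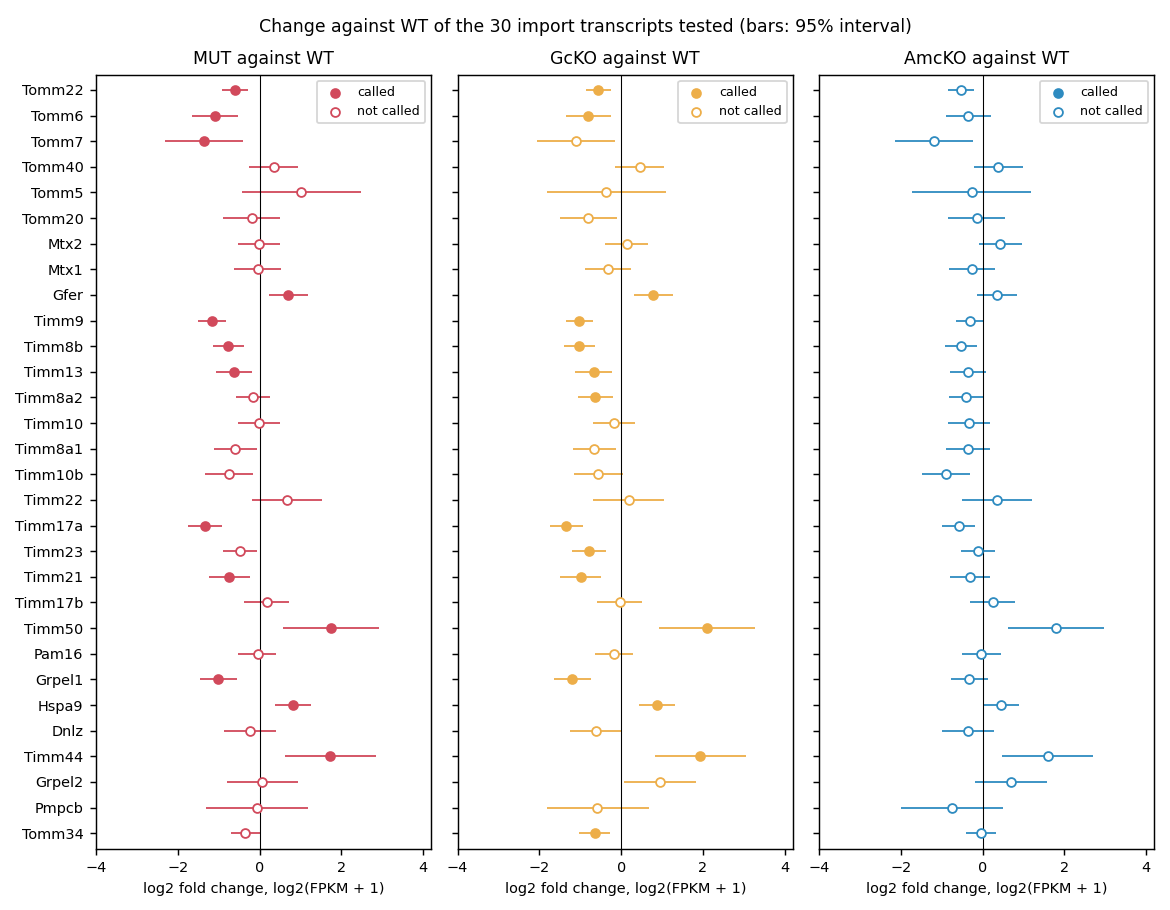
Log2 fold change against WT, on log2(FPKM + 1), of the 30 members tested (vertical axis) in MUT, GcKO and AmcKO; bars are 95% intervals of the limma fit and filled points passed the adjusted p of 0.05. Timm9, Timm17a, Timm8b and Grpel1 lie left of 0 and Hspa9, Gfer, Timm44 and Timm50 right of 0 in MUT and GcKO, and no point is filled in AmcKO; the points called lower in MUT and GcKO move right, many of them past 0, if libraries are scaled to the same sum.

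The scaling mattered more than any other choice. With each library scaled to the same FPKM sum, 1 member was called lower and 14 higher in MUT, and 1 lower and 12 higher in GcKO. Of all 11233 genes tested, 251 were then called lower and 4643 higher in MUT, and 240 and 4767 in GcKO. A call of higher on this scale was thus common among all genes. The members then had medians of 0.57 and 0.38, and all genes tested had medians of 0.71 and 0.74. With equal sums the members called higher in both groups were Gfer, Hspa9, Timm44, Timm50, Tomm22, Tomm40, Mtx1, Mtx2, Timm10, Timm17b and Pam16, besides Timm23, Timm8a2 and Tomm34 in MUT and Grpel2 in GcKO. Relative to all genes, the median member thus lay below on both scales. After quantile normalization, which gives all libraries 1 shared distribution, 1 member was called lower and 3 higher in MUT. In GcKO 2 were called lower and 5 higher. Of all genes tested, 720 were then called lower and 753 higher in MUT, and 665 and 691 in GcKO. Member medians were 0.04 and -0.09, and medians of all genes were 0.03 in both, so in MUT the median member no longer lay below. Calls given for single members from here on are on the deposited scale unless another is named. Gfer and Hspa9 were called higher in both groups under all 3 scalings. Timm17a was called lower in both groups on the deposited scale and with equal sums, and Grpel1 on the deposited scale and after quantile normalization. As a share of the library's FPKM sum, the members together made up 0.853 to 0.918% (WT), 0.877 to 0.921% (MUT), 0.851 to 0.964% (GcKO) and 0.771 to 0.866% (AmcKO), ranges that overlapped between WT and each of the other groups.

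**Figure D3:**
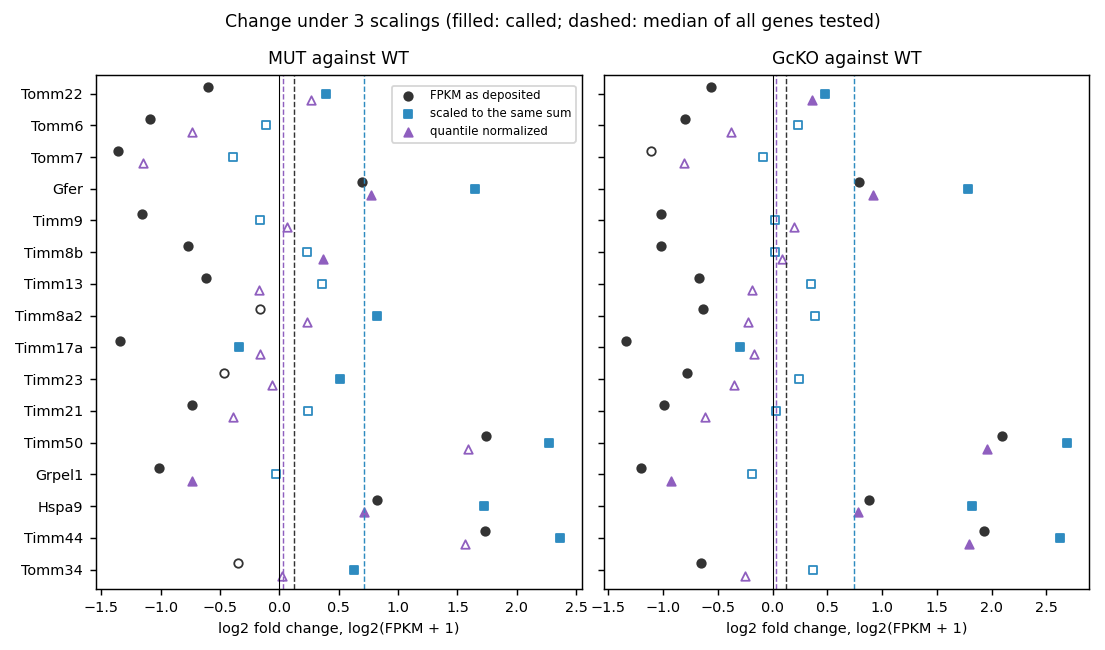
Log2 fold change of the 16 members called in MUT or GcKO (vertical axis) on FPKM as deposited, after scaling to the same FPKM sum and after quantile normalization; filled symbols passed the adjusted p of 0.05 and dashed lines are the medians of all genes tested. Gfer and Hspa9 are filled and right of 0 in each case, Timm17a is left of 0 in each case, and Tomm22 moves from left to right.

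In the TOM complex, 3 of 6 members tested were called lower in MUT and 2 of 6 in GcKO on the deposited scale. Of all genes tested, 11.3% were called lower in MUT and 11.4% in GcKO. At 100 FPKM or more, where Tomm22 lies, these shares were 68.1% and 71.0%. From 10 to under 100 FPKM, where Tomm6 and Tomm7 lie, they were 20.2% and 20.4%. None of the TOM calls held on another scale. Tomm22, the central receptor that also holds the complex together, had FPKM values of 488, 507 and 470 in WT, 328, 316 and 319 in MUT, and 273, 341 and 390 in GcKO. All MUT and GcKO libraries lay below all WT libraries. Its log2 fold change was -0.60 (SE 0.15, adjusted p = 0.0106) in MUT and -0.56 (SE 0.15, adjusted p = 0.0159) in GcKO, but with equal sums it was called higher in both, by 0.39 (adjusted p = 0.00526) and 0.48 (adjusted p = 0.00155), and after quantile normalization in GcKO, by 0.36 (adjusted p = 0.017). Tomm6 and Tomm7 are small subunits that tune the assembly of the complex. Tomm6 stood at 63.8, 120 and 81.4 FPKM in WT, 43.1, 29.8 and 47.7 in MUT, and 39.4, 45.1 and 65.0 in GcKO; MUT did not overlap WT, and GcKO did. Its change was -1.09 (SE 0.26, adjusted p = 0.00897) in MUT and -0.80 (SE 0.26, adjusted p = 0.0438) in GcKO. The MUT call was lost without MUT 2 (adjusted p = 0.059), and the GcKO call without WT 5, WT 6, GcKO 1 or GcKO 2 (adjusted p up to 0.182). Tomm7 had 55.8, 61.0 and 50.3 FPKM in WT against 35.3, 17.0 and 15.5 in MUT and 31.3, 25.2 and 20.4 in GcKO. No MUT or GcKO library reached the lowest WT library, yet only MUT was called (-1.36, SE 0.44, adjusted p = 0.0434; GcKO -1.11, SE 0.44, adjusted p = 0.0941, or 0.0259 when only GcKO and WT were fitted), and the MUT call was lost without any of the 3 WT libraries, MUT 2 or MUT 3 (adjusted p up to 0.192). The pore Tomm40 had changes of 0.35 and 0.45 that were not called, with 95% intervals of -0.25 to 0.94 and -0.14 to 1.05; with equal sums it was called higher in both (1.30, adjusted p = 0.00129, and 1.45, adjusted p = 6.8e-04). Tomm5 and Tomm20 stayed under 5 FPKM in all libraries and were not called in any comparison on the deposited scale; after quantile normalization Tomm20 was called lower in GcKO (-1.11).

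On the deposited scale no metaxin was called, and the MIA oxidase rose on every scale. Mtx2, the most abundant of the SAM group, had 36.1, 26.6 and 42.5 FPKM in WT, 38.4, 27.1 and 37.5 in MUT, 27.7, 40.6 and 48.5 in GcKO, and 45.4, 56.5 and 39.4 in AmcKO. These groups overlapped, and the change was -0.02 in MUT (95% interval -0.54 to 0.50) and 0.14 in GcKO (-0.39 to 0.66). Mtx1 changed by -0.05 and -0.32 without a call. With equal sums both were called higher, Mtx1 by 0.89 and 0.65 and Mtx2 by 0.95 and 1.15. Gfer, the sulfhydryl oxidase that recharges Chchd4 with disulfides, went the other way. It had 14.5, 21.1 and 17.1 FPKM in WT, 26.8, 32.5 and 27.4 in MUT, and 28.6, 30.8 and 33.3 in GcKO, with every MUT and GcKO library above every WT library. The change was 0.70 (SE 0.22, adjusted p = 0.0402) in MUT and 0.79 (SE 0.22, adjusted p = 0.0226) in GcKO, and was larger, 1.65 and 1.78, with equal sums. The size moved little when a library was left out (0.57 to 0.83 in MUT and 0.67 to 0.92 in GcKO), but the call held only without WT 5 in either group, with an adjusted p of up to 0.129 in MUT without WT 4, WT 6 or any MUT library and up to 0.0767 in GcKO without WT 4, WT 6 or any GcKO library. Chchd4 itself was above 0 in a single library, GcKO 1, at 0.657 FPKM.

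Small TIM chaperones held the most abundant import transcript and had the most members called lower among the role groups in GcKO. On the deposited scale 3 of 6 were called lower in MUT and 4 of 6 in GcKO, and all 6 log2 fold changes were below 0 in both. Of the 11233 genes tested, 11.3% were called lower in MUT and 11.4% in GcKO, and 4707 and 4695 had changes below 0. At 100 FPKM or more, where Timm9 and Timm8b lie, 68.1% and 71.0% of genes were called lower. From 10 to under 100 FPKM, where Timm13 and Timm8a2 lie, 20.2% and 20.4% were. With equal sums no small TIM was called lower. Timm9 had 3304, 3222 and 3456 FPKM in WT, 1508, 1447 and 1512 in MUT, and 1339, 1648 and 1996 in GcKO. The 3 MUT libraries lay close together and, like the GcKO libraries, far below WT. The group means were 3327 ± 119 (SD, n = 3) in WT, 1489 ± 36.6 in MUT and 1661 ± 329 in GcKO. Its log2 fold change was -1.16 (SE 0.16, adjusted p = 3.0e-04) in MUT and -1.02 (SE 0.16, adjusted p = 6.7e-04) in GcKO, against -0.16 and 0.02 with equal sums. Timm8b, which pairs with Timm13 in a second chaperone complex, had 2398, 2532 and 2866 FPKM in WT, 1533, 1527 and 1502 in MUT, and 1098, 1192 and 1603 in GcKO. Again no MUT or GcKO library reached the WT range. The change was -0.77 (SE 0.18, adjusted p = 0.00776) in MUT and -1.02 (SE 0.18, adjusted p = 0.00135) in GcKO, and turned to 0.23 and 0.02 with equal sums; after quantile normalization Timm8b was called higher in MUT (0.37).

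Timm13 had 113, 109 and 90.0 FPKM in WT, 64.2, 82.7 and 56.2 in MUT, and 57.1, 72.0 and 65.3 in GcKO. It was lower in each MUT and GcKO library than in any WT library, by -0.62 (SE 0.21, adjusted p = 0.0477) and -0.67 (SE 0.21, adjusted p = 0.0346), but the change was 0.36 and 0.35 with equal sums and -0.17 and -0.19 after quantile normalization, none of them called. Both calls were fragile: that in MUT held only without MUT 2 and that in GcKO only without WT 6, and the adjusted p rose to 0.175 and 0.129 without the other libraries. Timm8a2 was called lower in GcKO and not in MUT on the deposited scale, whereas with equal sums it was called higher in MUT (0.82, adjusted p = 0.00579) and not called in GcKO (0.39, adjusted p = 0.134). Its FPKM values were 58.1, 71.1 and 88.6 in WT, 78.5, 62.5 and 53.3 in MUT, and 46.8, 48.9 and 42.3 in GcKO, so that MUT overlapped WT and GcKO did not. The GcKO change was -0.63 (SE 0.19, adjusted p = 0.0346) and the MUT change -0.16 (SE 0.19, adjusted p = 0.603); GcKO against MUT gave -0.47 with an adjusted p of 0.634, so a difference between them was not shown. The GcKO call was lost without WT 5, WT 6 or any GcKO library (adjusted p up to 0.116). Timm10, the partner of Timm9, changed by -0.01 in MUT (95% interval -0.52 to 0.50) and -0.18 in GcKO (-0.69 to 0.33), and Timm8a1 by -0.60 and -0.66, none of them called; with equal sums Timm10 was called higher in both groups (0.97, adjusted p = 0.00158, and 0.84, adjusted p = 0.00368).

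The TIM22 complex inserts carrier proteins into the inner membrane, and neither of its 2 members tested was called against WT on any scale. Timm10b, a small TIM bound to this complex, had 124, 179 and 101 FPKM in WT, 69.5, 95.4 and 69.6 in MUT, 71.4, 81.5 and 121 in GcKO, and 73.5, 96.4 and 48.7 in AmcKO. Most libraries of the other groups lay below the WT range, with changes of -0.76 (SE 0.28, adjusted p = 0.0687), -0.56 (SE 0.28, adjusted p = 0.175) and -0.89 (SE 0.28, adjusted p = 0.165). The channel Timm22 stayed under 2 FPKM and was listed at 0 in 4 libraries, 2 of them WT.

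TIM23 members split in both directions. Of 5 tested, 2 were called lower and 1 higher in MUT, and 3 lower and 1 higher in GcKO, on the deposited scale. Among all genes tested, 11.3% were called lower and 9.46% higher in MUT, and 11.4% and 8.71% in GcKO. At 100 FPKM or more, where Timm17a lies, 68.1% were called lower in MUT and 71.0% in GcKO. From 10 to under 100 FPKM, where Timm21 and Timm23 lie, 20.2% and 20.4% were called lower. Under 10 FPKM, where Timm50 lies, 8.76% and 8.31% were called higher. Timm17a, one of the 2 alternative Timm17 subunits of the channel, had 3222, 3274 and 3341 FPKM in WT, 1333, 1231 and 1318 in MUT, and 1026, 1240 and 1701 in GcKO. Its WT values spanned a narrow range, and the highest GcKO library was far below the lowest of them. The log2 fold change was -1.34 (SE 0.19, adjusted p = 3.4e-04) in each of MUT and GcKO, and -0.34 (adjusted p = 0.0109) and -0.30 (adjusted p = 0.0205) with equal sums; after quantile normalization it was -0.16 and -0.17 and not called. The other form, Timm17b, changed by 0.17 in MUT (95% interval -0.39 to 0.72) and by -0.03 in GcKO (-0.58 to 0.52), and with equal sums it was called higher, by 1.12 and 0.96. Timm23, the channel itself, had 94.1, 78.8 and 92.5 FPKM in WT, 72.5, 64.9 and 53.6 in MUT, and 37.9, 63.3 and 55.0 in GcKO. Both groups lay below WT, but only GcKO was called (-0.78, SE 0.19, adjusted p = 0.0117; MUT -0.47, SE 0.19, adjusted p = 0.0989), and with equal sums Timm23 was called higher in MUT (0.51). Timm21, which links TIM23 to TOM and the respiratory chain, had 96.9, 77.5 and 69.1 FPKM in WT, 52.3, 36.7 and 56.5 in MUT, and 31.2, 41.4 and 48.9 in GcKO. No library of either group reached WT, with changes of -0.74 (SE 0.23, adjusted p = 0.0361) and -0.99 (SE 0.23, adjusted p = 0.00813) that became 0.24 and 0.03 with equal sums. The MUT call was lost whichever WT or MUT library was left out (adjusted p 0.0506 to 0.153). Timm50, the receptor of TIM23 for presequences, was low and rose. It was listed at 3.41, 0 and 0 FPKM in WT, 7.08, 2.21 and 5.32 in MUT, and 10.5, 5.92 and 3.29 in GcKO. WT 4 overlapped both groups, and the calls (1.74, SE 0.55, adjusted p = 0.0373 in MUT; 2.09, SE 0.55, adjusted p = 0.0155 in GcKO) held in 2 of 6 fits with a library left out in each group, being lost without WT 5, WT 6, MUT 1, MUT 3, GcKO 1 or GcKO 2 (adjusted p up to 0.156 in MUT and 0.0989 in GcKO).

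At these levels a library's precision matters, since the value of 1 sequenced fragment, estimated from the steps between low FPKM values relative to MUT 2, was largest in the WT libraries (2.28 to 2.66) and smaller in MUT (up to 1.21), GcKO (0.901 to 1.5) and AmcKO (1.21 to 1.49). On the deposited scale a zero in WT is therefore a coarser reading than a zero elsewhere. The FPKM sums relative to MUT 2 were also largest in WT, at 1.91 to 2.0. How far the larger step goes beyond this difference in scale was not tested.

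In the import motor the chaperone and its exchange factor moved apart. Hspa9, the matrix chaperone (mortalin) that pulls proteins in, had 7.86, 7.62 and 6.00 FPKM in WT, 11.9, 15.0 and 13.3 in MUT, and 13.8, 14.4 and 13.6 in GcKO. All MUT and GcKO libraries lay above WT, and the GcKO libraries were close together. Its log2 fold change was 0.82 (SE 0.21, adjusted p = 0.0122) in MUT and 0.88 (SE 0.21, adjusted p = 0.0082) in GcKO, and the call held in all 6 fits with a library left out in each group. Grpel1, the factor that releases ADP from Hspa9, had 62.7, 56.5 and 58.4 FPKM in WT, 29.3, 28.1 and 29.4 in MUT, and 20.5, 23.4 and 33.2 in GcKO. No MUT or GcKO library came near the lowest WT library. The change was -1.01 (SE 0.21, adjusted p = 0.00423) in MUT and -1.20 (SE 0.21, adjusted p = 0.00137) in GcKO, held in all 6 fits in each group, and shrank to -0.03 and -0.19, not called, with equal sums. Timm44, which tethers Hspa9 to the channel, had 0, 4.65 and 0.994 FPKM in WT, 6.16, 4.40 and 9.56 in MUT, and 7.59, 10.7 and 5.27 in GcKO. WT 5 overlapped MUT and lay just below GcKO, and the changes of 1.73 (SE 0.52, adjusted p = 0.0304) and 1.93 (SE 0.52, adjusted p = 0.0175) rest on this low group: the MUT call held only without WT 5 (adjusted p up to 0.151 otherwise), and the GcKO call was lost without WT 4, WT 6, GcKO 1 or GcKO 2 (adjusted p up to 0.0887). Pam16, a regulator of the motor and its most abundant member, had 92.7, 86.1 and 119 FPKM in WT, 97.1, 92.6 and 94.3 in MUT, 76.4, 75.6 and 112 in GcKO, and 68.9, 112 and 115 in AmcKO. All groups overlapped, and its change was -0.05 in MUT (95% interval -0.52 to 0.41) and -0.18 in GcKO (-0.65 to 0.29); with equal sums it was called higher, by 0.93 and 0.84. Dnlz, which keeps Hspa9 soluble, and Grpel2, the second exchange factor, were not called, with changes of -0.23 and 0.06 in MUT and of -0.62 and 0.95 in GcKO; with equal sums Grpel2 was called higher in GcKO (1.52).

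Among the last members, Pmpcb, a subunit of the presequence protease, was listed at 1.17, 0 and 4.53 FPKM in WT, 2.16, 0.502 and 1.21 in MUT, 0, 0.450 and 1.5 in GcKO, and 1.5, 0 and 0 in AmcKO, and was not called. Pmpca, its partner, was above 0 in the 3 MUT libraries only (0.754, 0.464 and 0.281 FPKM) and was too low to be tested. Tomm34, a cytosolic co-chaperone of precursors, had 71.7, 79.0 and 58.5 FPKM in WT, 51.8, 60.1 and 51.2 in MUT, 37.6, 50.4 and 44.1 in GcKO, and 65.2, 74.2 and 63.6 in AmcKO. GcKO lay below all the other groups, its highest library just under the lowest MUT library. Tomm34 was called lower in GcKO (-0.65, SE 0.17, adjusted p = 0.0156), a call lost without GcKO 1 (adjusted p = 0.0562), and not in MUT (-0.35, SE 0.17, adjusted p = 0.17), and with equal sums it was called higher in MUT (0.63, adjusted p = 0.00802) and was 0.37 in GcKO, not called (adjusted p = 0.0875).

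Direction went with abundance, among the members as among all genes. All 4 members with a mean of 100 FPKM or more (Timm9, Timm17a, Timm8b and Tomm22) were called lower in both groups, where 68.1% of the 882 genes at that level were called lower in MUT and 71.0% in GcKO. Their median change was -0.96 in MUT and -1.02 in GcKO, close to the -0.81 and -0.87 of all genes at that level. From 10 to under 100 FPKM, 5 of 18 members were called lower and 2 higher in MUT and 7 lower and 2 higher in GcKO, where 20.2% and 14.0% of genes in MUT, and 20.4% and 12.4% in GcKO, were called lower and higher. The member medians there, -0.25 and -0.59, lay below those of all such genes, -0.08 and -0.11. Under 10 FPKM, none of 8 members was called lower and 2 (Timm44 and Timm50) were called higher, where 8.76% and 8.31% of genes were called higher. Splitting at 10 and 100 FPKM was chosen after the values were seen.

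**Figure D4:**
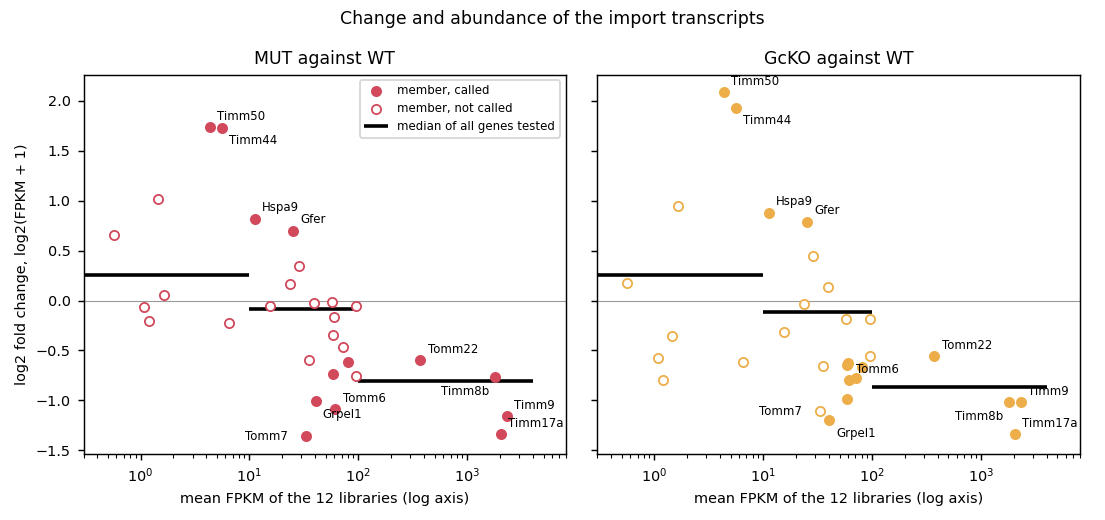
Log2 fold change on log2(FPKM + 1), as deposited, of the 30 members tested in MUT and GcKO against their mean FPKM over the 12 libraries (log axis); filled points were called and black lines are the medians of all genes tested under 10, from 10 to under 100 and from 100 FPKM. Timm9, Timm17a, Timm8b and Tomm22 lie on both sides of the median line of their level, while Hspa9 and Gfer lie well above theirs and Grpel1 well below.

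Ratios of 2 members within a library do not depend on a factor by which a library is multiplied, such as its FPKM sum, though quantile normalization can change them. These 5 pairs were chosen after the values were seen, and with 3 libraries against 3 the exact permutation test cannot go below p = 0.1. Timm9, Timm17a and Timm8b lie at 100 FPKM or more, and Timm10, Timm17b, Timm23 and Timm13 from 10 to under 100. All genes at these 2 levels had median changes of -0.81 and -0.08 in MUT and of -0.87 and -0.11 in GcKO. Whether the ratios of these members moved more than those of other genes at such levels was not tested. Timm9 per Timm10 was 64.7, 55.9 and 43.8 in WT, 20.1, 24.9 and 28.9 in MUT, and 33.1, 24.9 and 33.7 in GcKO. The ratio was lower in every MUT and GcKO library than in WT (exact two-sided p = 0.1 each), whereas the AmcKO mean of 54.9 ± 4.29 (SD, n = 3) was near the WT mean of 54.8 ± 10.5 (exact permutation p = 1). Timm17a per Timm17b was 157, 102 and 217 in WT, 63.5, 46.7 and 49.7 in MUT, 53.6, 57.8 and 72.9 in GcKO and 81.9, 81.6 and 90.2 in AmcKO, so that all 3 groups lay below WT. Timm17a per Timm23 had a mean of 37.3 ± 3.80 in WT, 20.7 ± 3.44 in MUT, 25.9 ± 5.76 in GcKO and 27.6 ± 7.94 in AmcKO, and of these AmcKO overlapped WT. Hspa9 per Grpel1 was 0.125, 0.135 and 0.103 in WT, 0.406, 0.535 and 0.453 in MUT, 0.676, 0.616 and 0.411 in GcKO and 0.241, 0.195 and 0.216 in AmcKO. Every library of the other groups was thus above WT, with AmcKO between WT and the other 2 groups. Timm8b per Timm13 overlapped between WT and each group, at means of 25.4 ± 5.63 in WT, 23.0 ± 4.21 in MUT, 20.1 ± 4.07 in GcKO and 22.4 ± 2.73 in AmcKO.

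**Figure D5:**
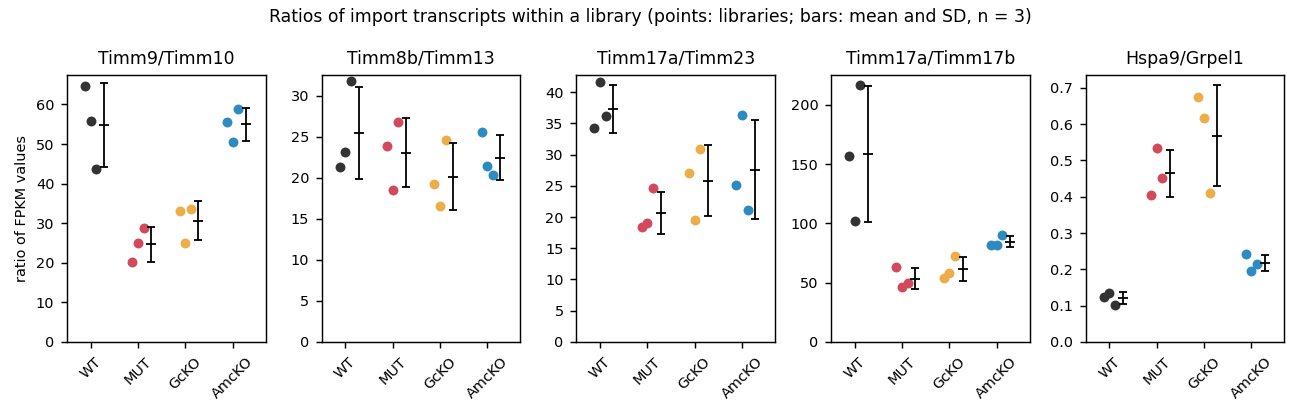
Ratio of the FPKM values of 2 members within each library, for 5 pairs; points are libraries, and bars give the mean and SD of the 3 libraries of a group, on axes that start at 0. Timm9 per Timm10 and Timm17a per Timm23 are lower, and Hspa9 per Grpel1 higher, in all MUT and GcKO libraries than in WT, and Timm8b per Timm13 overlaps.

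Deletion in granulosa cells gave no called change of any member. In AmcKO against WT, 0 of 30 were called by limma in either direction, where 0.116% of all genes were called lower and 0.0979% higher. An unadjusted limma p under 0.05 was found for 1754 of all 11233 genes tested and for 8 members. These 8 members were Tomm22 (-0.52), Timm50 (1.79), Timm10b (-0.89), Timm17a (-0.58), Timm44 (1.59), Timm8b (-0.53), Tomm7 (-1.19) and Hspa9 (0.46), with adjusted p-values from 0.139 to 0.306. The median over the members was -0.29, and 0.03 over all genes tested. Tomm22 had 334, 375 and 313 FPKM in AmcKO and Timm17a 2091, 2758 and 1815, all below the WT libraries. Timm9 had 2577, 3121 and 2379 FPKM, also below WT but above MUT and GcKO, at a change of -0.31 (95% interval -0.66 to 0.03). The intervals of several members include changes as large as those called in MUT, so the AmcKO oocytes were not shown to be like WT.

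No member was called different between MUT and GcKO oocytes. In GcKO against MUT, 0 of 30 members were called by limma, where 0.134% of genes were called lower and 0.0712% higher. An unadjusted limma p under 0.05 was found for 2 members and for 741 of all 11233 genes tested. The differences of the 4 abundant members were small, at 0.14 for Timm9 (95% interval -0.21 to 0.48), 0.00 for Timm17a (-0.41 to 0.41), -0.25 for Timm8b (-0.63 to 0.13) and 0.04 for Tomm22 (-0.27 to 0.36).

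GcKO against AmcKO compares deletion in the oocyte with deletion in granulosa cells, and 3 of 30 members were called lower and 0 higher, where 4.79% of genes were called lower and 0.668% higher. They were Grpel1 (-0.87, SE 0.21, adjusted p = 0.0272), Timm17a (-0.76, SE 0.19, adjusted p = 0.0331) and Timm9 (-0.71, SE 0.16, adjusted p = 0.0197). Grpel1 stood at 38.7, 62.3 and 42.8 FPKM in AmcKO, above all GcKO libraries. None of these 3 calls held with equal sums (-0.15, -0.02 and 0.04) or after quantile normalization (-0.76, 0.00 and 0.14), and each was lost without GcKO 1, GcKO 2 or AmcKO 5, and those of Timm17a and Timm9 without AmcKO 4 too (adjusted p up to 0.121 for Grpel1, 0.132 for Timm17a and 0.0796 for Timm9). MUT against AmcKO, a comparison added after the values were seen, called Timm9 (-0.84, SE 0.16, adjusted p = 0.00694) and Timm17a (-0.76, SE 0.19, adjusted p = 0.0284) lower and 0 members higher, where 5.07% of genes were called lower and 1.42% higher.

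Of the 11 promoter windows of members called lower in MUT or GcKO, 7 (63.6%) held the ETS core, where 13 of 28 windows of all members tested (46.4%) and 17.0% of windows of all genes tested did. By gene this was 6 of 10, since Tomm34 has 2 overlapping windows that share a match. Among the 7 were those of Tomm22, Timm8b and Grpel1 printed with the levels. None of the 3 windows of members called higher held it, nor did those of Timm9 and Timm17a.

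Other genes of the pathway, taken as 4 lists of 37 tested genes, also had calls in both directions. In MUT 8 were called lower and 3 higher, where 11.3% and 9.46% of all genes tested were, and in GcKO 8 lower and 3 higher, where 11.4% and 8.71% were. Their medians were -0.12 and -0.26, and 0.12 over all genes tested in both. Substrates of the MIA relay with twin CX9C motifs had the most calls of these lists, 4 of 10 lower in MUT (11.3% of all genes tested) and 5 of 10 in GcKO (11.4%), and none higher. Cox17, a copper chaperone of cytochrome oxidase, fell from 176 ± 63.3 FPKM (SD, n = 3) in WT to 39.0 ± 12.1 in MUT and 33.5 ± 20.7 in GcKO (log2 fold change -2.13, SE 0.41, adjusted p = 0.00242, and -2.48, SE 0.41, adjusted p = 9.0e-04). Chchd2, Cmc1 and Cmc2, with WT means of 698, 282 and 196 FPKM, were also called lower in both groups, and Chchd7 in GcKO. At 100 FPKM or more, where Chchd2, Cmc1 and Cmc2 lie and also Apoo below, 68.1% of genes were called lower in MUT and 71.0% in GcKO. In MICOS, which shapes the cristae, Apoo fell from 293 ± 62.1 FPKM to 92.6 ± 7.87 in MUT and 93.9 ± 8.11 in GcKO (-1.63 and -1.61, SE 0.20, adjusted p = 1.4e-04 and 1.6e-04), and Apool was called lower in both, while Dnajc11 was called higher in GcKO (0.74). Of the membrane partners, Dnajc15 was called lower in both groups (-0.76 and -0.91) and Immp1l in MUT (-0.83), whereas Agk was called higher in MUT (1.40) and Mtch1, listed at 0 in all WT libraries, was called higher in both. Among matrix chaperones and proteases only Lonp1, a protease of the matrix, was called, higher in both (1.28 and 1.19). Those calls are on the deposited scale. In AmcKO none of the 37 was called, and in GcKO against AmcKO Apoo, Cox17 and Chchd2 were called lower.

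Some members share sequence with other genes, and reads without strand cannot be assigned between overlapping exons. Timm9 (GRCm38, chromosome 12, 71123173 to 71136684, minus strand, 6 exons) overlaps an exon of Tomm20l on the plus strand, and Tomm20l was listed at 0. Timm8b (chromosome 9, 50603910 to 50605320, plus strand, 2 exons) overlaps Nkapd1, Grpel1 (chromosome 5, 36464998 to 36474080, plus strand, 4 exons) overlaps Tada2b, and Timm13 overlaps Tmprss9, each on the opposite strand. Timm17a (chromosome 1, 135295213 to 135313778, minus strand, 6 exons) and Tomm22 (chromosome 15, 79670861 to 79673400, plus strand, 4 exons) share no exon with another gene. Timm23 has near-identical copies, of which Gm10273 matches 95.6% of its transcript at 99.9% identity; Pam16, Timm8a1 and Tomm6 have such copies too (Gm9803, Gm9797 and Gm21981). None of these 4 copies is a row of the table, so the levels of those members are uncertain. Gfer shares 32.3% of its transcript at 99.8% identity with Dst, which was listed at up to 2.88 FPKM. Pmpca shares 27.9% with Inpp5e, listed at up to 0.676 FPKM. How far such shared sequence affects their levels was not tested.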

How the data were processed

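RNA-Seq had been done on 12 libraries of GV oocytes (20 per library; WT, MUT, GcKO and AmcKO, 3 each), amplified by Smart-seq2. The submitters' processing notes name TopHat2 2.0.13, Cufflinks 2.2.1, Cuffnorm and Cuffdiff and build mm10. The authors deposited FPKM values, 1 column per library for 24255 genes; the annotation used for counting is not given in the sources used here. The 18 columns of the authors' own comparisons, which hold fold changes, p-values and q-values, were not used. Depth is unknown, since FPKM holds no counts; no interval on counting error can be given, and for low genes the value of 1 fragment was estimated from the steps between FPKM values of libraries. No column was left unmapped and no 2 libraries were identical.

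FPKM was used as deposited. The 11233 genes that reached an FPKM of 1 in any library were tested by limma 3.58.1 (R 4.3.3), with log2(FPKM + 1) as the scale, the variance trend on, all 12 libraries in 1 fit and group as the only term (8 residual degrees of freedom). Tests were two-sided, with Benjamini-Hochberg adjustment over all genes tested and a threshold of 0.05. Fold changes are on the log2(FPKM + 1) scale, which understates the change of low genes. Ratios between members used exact permutation tests. The script was tested on simulated data. Alternatives were a pseudocount of 0.1, no filter, 2 scalings, only the 2 groups compared, a fold change over 2, each library left out, and a replicate block. Values per library are given for members called in any comparison and for the most abundant member of each role group, and others by range and count. Members and lists were chosen with earlier results of these data known, so no test was made over a list.

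Promoter windows came from RefSeq on GRCm38.p6 and positions from the GENCODE M21 annotation of GRCm38; copies of transcripts were searched with blastn 2.17.0 (identity of at least 95% over at least 25% of the transcript).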

Additional observations from a re-analysis of the deposited data

Results flagged for a closer look

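The changes of 3 members against WT differed between GcKO and AmcKO oocytes, by the direct limma test of GcKO against AmcKO on FPKM as deposited. Of all 11233 genes tested, 4.79% were called lower and 0.668% higher in this comparison. Grpel1, the nucleotide exchange factor of Hspa9, differed by -0.87 on the log2 scale (adjusted p = 0.0272), Timm17a of the TIM23 channel by -0.76 (adjusted p = 0.0331) and the small chaperone Timm9 by -0.71 (adjusted p = 0.0197). GcKO was lower in each case, and in all 3, which had been picked by the call, no GcKO library reached the lowest AmcKO library. With a library left out, the call held in 3 of 6 fits for Grpel1 and in 2 of 6 for Timm17a and for Timm9. With only GcKO and AmcKO fitted, 0 of all 11233 genes were called. The FPKM sums of the libraries moved with these groups, at 482314 to 684212 in GcKO and 883256 to 1107925 in AmcKO, and with libraries scaled to the same sum the differences were -0.15, -0.02 and 0.04, none of them called.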

How the results depend on the processing

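Scaling moved the results most. With the same FPKM sum, members called lower and higher came to 1 and 14 in MUT, 1 and 12 in GcKO and 0 and 7 in GcKO against AmcKO. Of all 11233 genes tested, those called lower and higher came to 251 and 4643, 240 and 4767, and 128 and 2463. The member medians came to 0.57, 0.38 and 0.43 and, in AmcKO against WT, -0.02. After quantile normalization the calls were 1 lower in MUT, 2 lower in GcKO, and 0 lower and 1 higher in GcKO against AmcKO. Genes called lower among all tested were 720 in MUT, 665 in GcKO and 161 in GcKO against AmcKO, with 89 higher in the last. The member medians were 0.04, -0.09 and 0.02. Among the 16 members called in MUT or GcKO, those called on either scale turned sign with equal sums in MUT for Timm13 (0.36), Timm21 (0.24), Timm23 (0.51), Timm8a2 (0.82), Timm8b (0.23), Tomm22 (0.39) and Tomm34 (0.63), in GcKO for Timm13 (0.35), Timm21 (0.03), Timm23 (0.24), Timm8a2 (0.39), Timm8b (0.02), Timm9 (0.02), Tomm22 (0.48), Tomm34 (0.37) and Tomm6 (0.23), and in GcKO against AmcKO for Timm9 (0.04) and Tomm22 (0.70). After quantile normalization they turned in MUT for Timm8b (0.37), Timm9 (0.06) and Tomm22 (0.27), in GcKO for Timm8b (0.09), Timm9 (0.20) and Tomm22 (0.36), and in GcKO against AmcKO for Timm17a (0.00, from -0.76), Timm9 (0.14) and Tomm22 (0.59). Other members turned too: with equal sums in MUT, Mtx1, Mtx2, Pam16 and Timm10 did and were then called higher, and further ones turned without a call. Which scale follows RNA per oocyte was not tested.

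A fold change over 2 left 5 lower and 2 higher in MUT, 4 and 2 in GcKO and 0 lower in GcKO against AmcKO, since it only removes calls. Fitting only the 2 groups compared called 6 lower and 2 higher in MUT, 7 lower and 2 higher in GcKO (6 of these 7 shared, the other being Tomm7, adjusted p = 0.0259) and 0 lower in GcKO against AmcKO. Of all 11233 genes tested, it called 1232 lower and 810 higher in MUT, and 838 and 410 in GcKO. In GcKO against AmcKO it called 0 of all genes in either direction. Without a filter 2 members were called higher in MUT, where 943 of 14933 genes were. The member medians were then -0.36 in GcKO and -0.15 in AmcKO, and the added members are near 0. Leaving out each library in turn gave 6 to 7 lower and 1 to 3 higher in MUT, 7 to 11 and 1 to 3 in GcKO, and 0 to 4 lower in GcKO against AmcKO. Among all 11233 genes, these fits called 926 to 1101 lower and 523 to 840 higher in MUT. In GcKO they called 941 to 1324 and 409 to 949, and in GcKO against AmcKO 229 to 654 lower. In all 6 such fits the calls held in MUT for Grpel1, Hspa9, Timm17a, Timm8b, Timm9 and Tomm22, and in GcKO for these and Timm21 and Timm23. Where not named, the cause of a change was not tested. With the replicate block, possible only between groups that share label numbers, AmcKO against WT and GcKO against MUT gave medians of -0.29 and -0.09. This fit called 0 members and also 0 of all 11233 genes in either direction, so its lack of calls says nothing about the members. No pairing by number was seen: deviations of same-numbered libraries correlated at -0.032 to 0.025 and -0.041 to 0.041. Those of libraries with different numbers correlated at -0.054 to 0.038 and -0.057 to 0.071. Such correlations over all genes tested cannot exclude that same-numbered libraries shared a batch. With 3 libraries a group and no counts, members under 10 FPKM are the least certain.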
